A study of Mus musculus with 12 samples.

Results

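A set of 9 membrane-anchored serine protease genes was followed through papillomas and epidermis of FVB/NJ mice: the 6 genes Tmprss11a, Tmprss11bnl, Tmprss11d, Tmprss11e, Tmprss11f and Tmprss11g of one gene cluster, together with Tmprss4, St14 and Prss8. They are 9 of the 23235 gene symbols in the files, and all 9 were selected by name with their FPKM (fragments mapped to a gene, scaled to its transcript length and to the depth of the library) across the groups in view. Their own levels and fold changes are therefore a description and carry no p-value. Where members are counted against the threshold of a fit over all genes, the count stands beside the share of all genes past it and supports nothing further. PolyA RNA was sequenced from 12 libraries, 3 in each of 4 groups: papillomas given camphor white oil (CWO), papillomas given vehicle, epidermis given CWO and epidermis given vehicle. CWO is an essential oil of the camphor tree, applied here at 20%, and the vehicle was acetone. All papilloma mice, vehicle mice included, had been shaved at an age of 6 to 7 weeks, initiated with 400 nmol of the carcinogen DMBA and promoted with repeated doses of 10 nmol TPA. Papillomas then received CWO or vehicle for 6 weeks, and each papilloma library pools 4 pre-malignant tumours of 1 mouse. Epidermis mice, shaved a week earlier, received 400 µL of CWO or vehicle on the skin, with no DMBA or TPA in their protocol and no age given, and epidermis was lifted with 3.8% ammonium thiocyanate after 24 h. The labels speak of 5 mice receiving CWO or vehicle, without saying whether per treatment, and the 3 samples of best RNA integrity in each treatment were sequenced.

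Membrane serine proteases are made as inactive zymogens tethered to the cell surface and are switched on by cleavage. In squamous epithelium matriptase, the product of St14, and prostasin, the glycosylphosphatidylinositol-anchored product of Prss8, work together in barrier formation, sodium channel activation and the processing of filaggrin, and both are held in check by the Kunitz inhibitors encoded by Spint1 and Spint2. The TMPRSS11 proteins form the HAT/DESC subfamily of type II transmembrane serine proteases. Human TMPRSS11D is the airway trypsin-like protease HAT, and human TMPRSS11E is also known as DESC1.

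The 6 Tmprss11 members lie side by side on chromosome 5 in the mm9 build, with Tmprss11c, a gene of the same cluster that was not among the selected names. Tmprss11c, at chr5:86660506-86718333, opens the cluster and Tmprss11e, at chr5:87134211-87174832, closes it, 514 kb apart from end to end. Between them come Tmprss11d (chr5:86731879-86802412), Tmprss11a (chr5:86839435-86898015), Tmprss11g (chr5:86914902-86947625), Tmprss11f (chr5:86950251-87061449) and Tmprss11bnl (chr5:87088547-87105323). The remaining members lie elsewhere, Prss8 on chromosome 7 (chr7:135069231-135073627) and St14 and Tmprss4 on chromosome 9 (chr9:30896175-30939384 and chr9:44980809-45012158). RefSeq promoter sequences matched 5 of the 9 members, Tmprss11bnl under its RefSeq symbol Tmprss11b. The 250 bases before the annotated start of each are shown, all read on the minus strand of chromosome 5 of GRCm38.p6. Of these genes, Tmprss11d, Tmprss11a, Tmprss11g and Tmprss11bnl were higher in papillomas and Tmprss11f was lower. Tmprss11e was higher in papillomas too, but no promoter sequence matched it. The members were selected with these levels in view. Capitals mark matches to the decamer half-site of the p53 family or to the AP-1 letters TGANTCA.
Tmprss11d: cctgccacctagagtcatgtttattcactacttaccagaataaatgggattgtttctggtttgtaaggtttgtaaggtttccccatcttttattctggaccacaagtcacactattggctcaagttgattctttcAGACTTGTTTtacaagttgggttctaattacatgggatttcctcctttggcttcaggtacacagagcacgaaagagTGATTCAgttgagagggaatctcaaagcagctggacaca
Tmprss11a: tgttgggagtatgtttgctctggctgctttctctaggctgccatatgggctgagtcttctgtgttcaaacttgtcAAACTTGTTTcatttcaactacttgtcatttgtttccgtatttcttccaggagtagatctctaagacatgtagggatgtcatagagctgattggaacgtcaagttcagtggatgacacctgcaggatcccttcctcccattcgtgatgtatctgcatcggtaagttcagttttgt
Tmprss11g: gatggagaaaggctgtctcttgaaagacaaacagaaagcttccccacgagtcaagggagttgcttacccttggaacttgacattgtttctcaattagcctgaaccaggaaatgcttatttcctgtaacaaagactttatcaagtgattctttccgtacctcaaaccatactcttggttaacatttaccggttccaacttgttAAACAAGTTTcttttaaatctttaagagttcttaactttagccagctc
Tmprss11bnl: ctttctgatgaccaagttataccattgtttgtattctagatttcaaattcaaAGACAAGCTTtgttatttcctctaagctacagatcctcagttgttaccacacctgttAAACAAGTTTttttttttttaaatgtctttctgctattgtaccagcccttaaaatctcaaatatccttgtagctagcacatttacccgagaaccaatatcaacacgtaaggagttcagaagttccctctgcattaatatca
Tmprss11f: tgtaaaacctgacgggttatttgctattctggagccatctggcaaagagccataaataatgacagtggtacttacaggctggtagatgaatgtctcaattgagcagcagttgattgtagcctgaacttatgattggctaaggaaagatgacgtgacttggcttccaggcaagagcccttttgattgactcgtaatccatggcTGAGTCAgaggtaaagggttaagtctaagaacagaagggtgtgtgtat

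The windows are chr5:86373388-86373637 for Tmprss11d, chr5:86468991-86469240 for Tmprss11a, chr5:86518601-86518850 for Tmprss11g, chr5:86676299-86676548 for Tmprss11bnl and chr5:86632425-86632674 for Tmprss11f, all in GRCm38.p6. The p53 family half-site was found in the promoters of Tmprss11d (AGACTTGTTT, bases -115 to -106 from the start), Tmprss11a (AAACTTGTTT, -175 to -166), Tmprss11g (AAACAAGTTT, -48 to -39) and Tmprss11bnl (AGACAAGCTT, -198 to -189, and AAACAAGTTT, -141 to -132). It was not found in the Tmprss11f window or in that of Tmprss11c. The same half-site occurs in 7.13% of all 32851 RefSeq promoter windows of this length. TGANTCA was found in Tmprss11f (-48 to -42) and Tmprss11d (-39 to -33) and occurs in 6.75% of windows. Another 4 motifs searched on both strands, TATAAA (12.4% of windows), AACCNGTT (1.79%), GGGTGGG (15.8%) and AGGAAGT (7.69%), had no match in these windows or in that of Tmprss11c. No searched match overlapped another. The matches are letters in a window, and no binding was measured. With so few windows, of genes whose levels were in view, nothing about their levels is read from the matches.

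Facts of the whole set of libraries bear on these values. Recovered fragments totalled between 11.1 and 24.6 M per library, and all 9 genes had an OK Cufflinks status in all 12 libraries. Keratinocyte markers summed to between 27910 and 37250 FPKM in papillomas and between 25930 and 32850 FPKM in epidermis. At least 1 FPKM in every library was reached by 10 of 11 in both papilloma groups and by 11 of 11 in both epidermis groups. Skeletal muscle markers reached 19330 FPKM in the vehicle epidermis group, where libraries 1 and 2 were highest, against 3269 to 4233 FPKM in CWO epidermis. In papillomas they summed to 9.47 to 70.8 FPKM with CWO and 56.1 to 445 FPKM with vehicle. Dermal matrix markers summed to 739 to 1131 FPKM in papillomas and 218 to 290 FPKM in epidermis, and mast cell markers to 32.0 to 56.6 FPKM in papillomas and 2.63 to 9.28 FPKM in epidermis. Sebaceous gland markers summed to 210 to 499 FPKM in papillomas and 2703 to 3963 FPKM in epidermis, and T cell markers to 21.9 to 33.1 FPKM in papillomas and 229 to 273 FPKM in epidermis. Thy1 counts in both the dermal matrix and the T cell sums, at 15.8 to 22.2 FPKM in papillomas and 119 to 155 FPKM in epidermis. It made up a large part of the epidermis matrix sums and most of the papilloma T cell sums. The part of these shifts in the tissue values below was not tested. The oral and oesophageal keratin Krt13 was uneven among papillomas, at 180, 187 and 1254 FPKM with CWO and 529, 1680 and 1918 FPKM with vehicle. RNA came from pooled tumours or from lifted epidermis, both of mixed cell types, in which fewer cells of a type and less RNA per cell cannot be told apart.

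Of the 6 Tmprss11 members, 5 were high in every papilloma library and near 0 or low in every epidermis library. Tmprss11bnl, a HAT/DESC protease, had the highest level of all 9 genes in papillomas, at 117, 90.7 and 159 FPKM with CWO and 147, 136 and 162 FPKM with vehicle. In epidermis it had 0.0842, 0.165 and 0 FPKM with CWO and 0.0361, 0 and 0.0408 FPKM with vehicle, which are 0 to 6 fragments per library. Papilloma and epidermis libraries did not overlap, and the CWO and vehicle libraries overlapped within each tissue.

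Tmprss11d, the mouse counterpart of human HAT, had 26.4, 19.7 and 50.7 FPKM in CWO papillomas and 36.1, 43.9 and 64.8 FPKM in vehicle papillomas. It was at 0 in all 3 CWO epidermis libraries, and in vehicle epidermis it had 0, 0 and 0.0223 FPKM, the last being 1 fragment. At a floor of 3 fragments per library, its mean in CWO papillomas of 32.3 ± 16.3 FPKM (SD, n = 3) was at least 354-fold higher than in CWO epidermis. Relative to their mean, its papilloma values spread more than those of the other members, and CWO papilloma library 3 lay above 2 of the 3 vehicle papilloma libraries.

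Tmprss11a, whose human counterpart was described as an oesophageal cancer-related gene, had 44.1, 35.3 and 41.0 FPKM in CWO papillomas and 45.7, 46.5 and 60.8 FPKM in vehicle papillomas. In epidermis it ranged between 0.0229 and 0.0900 FPKM with CWO and between 0.0334 and 0.177 FPKM with vehicle, or 1 to 6 fragments per library. The papilloma mean was 885 times that of epidermis with CWO and 617 times with vehicle, on 6 and 9 epidermis fragments in all. It was the only member whose CWO and vehicle papilloma libraries did not overlap, with the highest CWO library at 44.1 FPKM and the lowest vehicle library at 45.7 FPKM.

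Tmprss11g, another HAT/DESC protease, had 46.9, 29.9 and 52.0 FPKM in CWO papillomas and 50.3, 55.7 and 56.3 FPKM in vehicle papillomas. In epidermis it had 0.508, 0.807 and 0.590 FPKM with CWO and 0.381, 0.102 and 0.522 FPKM with vehicle. The ratio of papilloma to epidermis means was 67.7 with CWO and 162 with vehicle, and the treatments overlapped in both tissues.

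Tmprss11e, the mouse counterpart of DESC1, had 42.0, 35.5 and 51.4 FPKM in CWO papillomas and 43.8, 41.8 and 34.6 FPKM in vehicle papillomas. In epidermis it had 2.08, 2.01 and 1.63 FPKM with CWO and 0.679, 1.02 and 0.908 FPKM with vehicle, on 93 to 118 and 30 to 71 fragments. The 3 CWO epidermis libraries all lay above the 3 vehicle epidermis libraries, while in papillomas the treatments overlapped. The ratio of papilloma to epidermis means was 22.5 with CWO and 46.1 with vehicle.

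Tmprss11f, the remaining member of the cluster, ran the other way. It had 9.91, 7.76 and 8.88 FPKM in CWO papillomas and 8.49, 8.67 and 9.63 FPKM in vehicle papillomas. In epidermis it had 12.1, 14.1 and 20.1 FPKM with CWO and 11.99, 13.9 and 15.7 FPKM with vehicle. All 6 epidermis libraries lay above all 6 papilloma libraries, and the treatments overlapped in both tissues. Its mean in papillomas was 0.574 times that in epidermis with CWO and 0.645 times with vehicle.

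**Figure D1:**
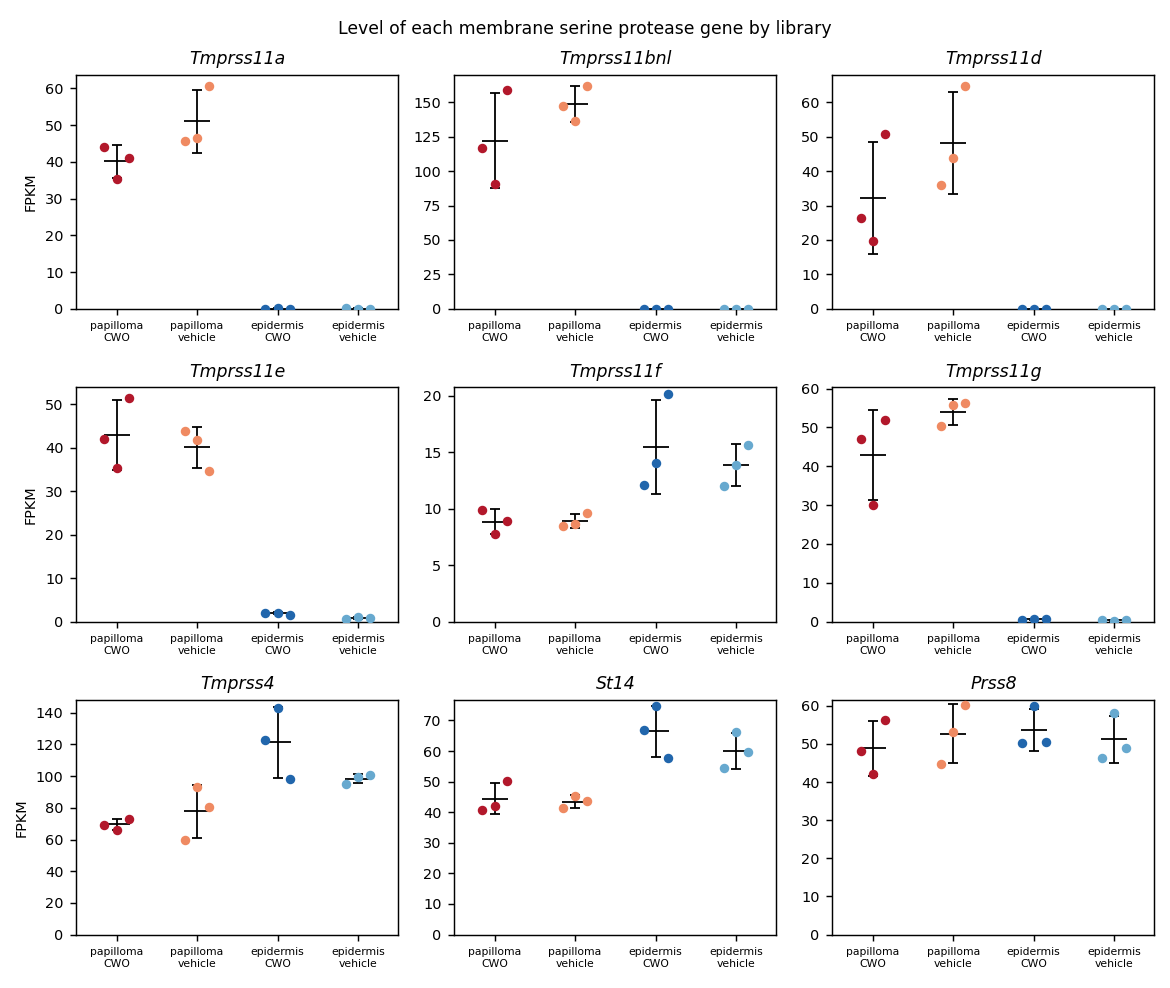
FPKM (vertical axes, each from 0) of the 9 genes in the 12 libraries, 1 panel per gene, with points for libraries and black bars for the group mean ± SD (n = 3). The genes Tmprss11a, Tmprss11bnl, Tmprss11d, Tmprss11e and Tmprss11g sit at most at 2.08 FPKM in epidermis, whereas Tmprss11f, Tmprss4 and St14 are higher there and Prss8 overlaps among all 4 groups.

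The 3 members outside the cluster were above 40 FPKM in every library of both tissues. St14, the matriptase gene, had 40.8, 42.1 and 50.1 FPKM in CWO papillomas and 41.4, 45.4 and 43.6 FPKM in vehicle papillomas, against 66.9, 74.6 and 57.8 FPKM in CWO epidermis and 54.4, 66.1 and 59.8 FPKM in vehicle epidermis. The tissues did not overlap, with papillomas lower, and the treatments overlapped within each tissue.

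Tmprss4, a protease known to activate the epithelial sodium channel, had 69.1, 66.3 and 73.2 FPKM in CWO papillomas and 59.5, 93.1 and 80.5 FPKM in vehicle papillomas, against 123, 143 and 98.4 FPKM in CWO epidermis and 95.3, 99.2 and 101 FPKM in vehicle epidermis. It was the highest of the 9 genes in epidermis and second to Tmprss11bnl in papillomas. The highest papilloma library, at 93.1 FPKM, lay just below the lowest epidermis library, at 95.3 FPKM.

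Prss8, the prostasin gene, had 48.1, 42.0 and 56.3 FPKM in CWO papillomas and 44.7, 53.2 and 60.3 FPKM in vehicle papillomas, against 50.3, 60.1 and 50.6 FPKM in CWO epidermis and 46.4, 58.2 and 49.0 FPKM in vehicle epidermis. All neighbouring groups in the order of its means overlapped. The St14 to Prss8 ratio of FPKM was 0.913 ± 0.0800 in CWO papillomas and 0.834 ± 0.103 in vehicle papillomas, against 1.24 ± 0.0941 in CWO epidermis and 1.18 ± 0.0417 in vehicle epidermis (SD, n = 3 each).

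The order of the 4 groups fell into a few patterns. For Tmprss11bnl, Tmprss11d, Tmprss11g and Tmprss11a the vehicle papilloma mean came first and the CWO papilloma mean after it, overlapping except for Tmprss11a. For Tmprss11e the CWO papilloma mean came first, overlapping vehicle papillomas. The epidermis groups overlapped each other for all members except Tmprss11e. Within papillomas, FPKM being a level per length, the means of Tmprss11g, Prss8, Tmprss11a, Tmprss11d, St14 and Tmprss11e overlapped each neighbour in the order, between Tmprss4 above and Tmprss11f below.

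The 6 Tmprss11 genes made up 63.5 ± 3.89% of the summed FPKM of the 9 genes in CWO papillomas and 66.9 ± 3.12% in vehicle papillomas, against 7.12 ± 2.28% in CWO epidermis and 6.74 ± 0.725% in vehicle epidermis (SD, n = 3 each). Their sum was 289 ± 72.3 FPKM in CWO papillomas and 351 ± 32.4 FPKM in vehicle papillomas, against 18.1 ± 3.87 FPKM in CWO epidermis and 15.2 ± 1.96 FPKM in vehicle epidermis. Among the 6, Tmprss11bnl held 42.0 ± 1.62% of the sum in CWO papillomas and 42.4 ± 1.84% in vehicle papillomas. In epidermis Tmprss11f held 84.6 ± 4.64% with CWO and 91.3 ± 0.949% with vehicle. Tmprss4 took 46.6 ± 3.14% of the 9-gene sum in CWO epidermis and 43.9 ± 2.02% in vehicle epidermis.

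**Figure D2:**
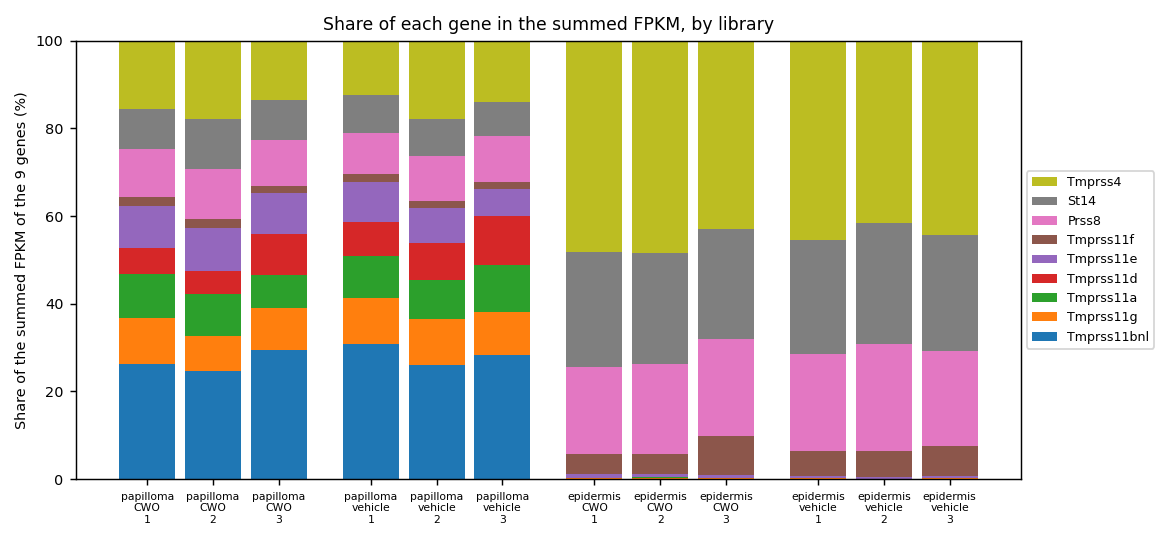
Share of each gene in the summed FPKM of the 9 genes (vertical axis, %), 1 stacked bar per library, groups from left to right papilloma CWO, papilloma vehicle, epidermis CWO and epidermis vehicle. The Tmprss11 genes fill 59.3% to 69.5% of each papilloma bar, and Tmprss4, St14 and Prss8 fill most of each epidermis bar.

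The comparison of vehicle papillomas with vehicle epidermis asked how the tumours differ from normal epidermis without the oil. Papillomas also differ from epidermis in DMBA and TPA exposure, in the length of treatment and in how the tissue was taken, and these cannot be told apart from the tissue. Fitted with limma on log2(FPKM + 1) over all genes, with a Benjamini-Hochberg adjusted p under 0.05 as the threshold, this comparison called 8958 of 12820 genes, or 69.9%. All 9 members entered the fit, 5 past the threshold as higher and 2 as lower in papillomas. Since the members were selected with these levels in view, and Tmprss11bnl, Tmprss11d, Tmprss11a, Tmprss11g and Tmprss11e passed the filter of 1 FPKM in 3 libraries through the papilloma group, nothing is read from that count. The fitted log2 differences, with their SE, were 7.18 ± 0.11 for Tmprss11bnl, 5.58 ± 0.14 for Tmprss11a, 5.57 ± 0.20 for Tmprss11d, 5.38 ± 0.14 for Tmprss11g and 4.46 ± 0.13 for Tmprss11e. They depend on the value of 1 added before the logarithm, and with 0.1 added Tmprss11bnl came to 10.22 and Tmprss11e to 5.38. Tmprss11f had -0.57 ± 0.12, St14 -0.46 ± 0.10, Tmprss4 -0.36 ± 0.15 and Prss8 0.04 ± 0.13, with Tmprss4 and Prss8 short of the threshold. The median over all tested genes was -0.07.

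**Figure D3:**
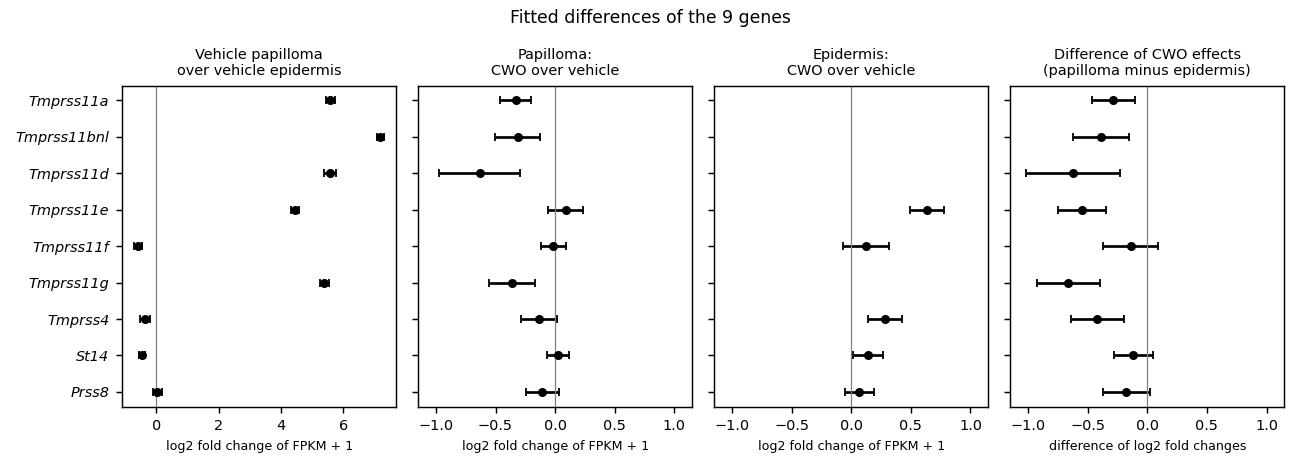
Fitted log2 differences (horizontal axes, on log2(FPKM + 1)) with SE bars for the 9 genes in 4 comparisons. The left panel has its own wider axis, where 5 Tmprss11 genes lie between 4.46 and 7.18, and 4 genes below the filter have no point in the epidermis panel.

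In papillomas, 6 weeks of CWO left all 9 members short of the threshold, where 1 of 12179 genes (0.00821%) passed it and 306 genes had an unadjusted p under 0.05. Values were negative for 7 members and positive for 2, beside 52.3% negative among all tested genes. The log2 differences, CWO over vehicle, were -0.63 ± 0.34 (SE) for Tmprss11d, -0.36 ± 0.19 for Tmprss11g, -0.33 ± 0.13 for Tmprss11a and -0.31 ± 0.19 for Tmprss11bnl. They were -0.14 ± 0.15 for Tmprss4, -0.11 ± 0.14 for Prss8, -0.02 ± 0.11 for Tmprss11f, 0.02 ± 0.09 for St14 and 0.09 ± 0.15 for Tmprss11e. In the authors' deposited table for papillomas, the log2 fold changes of CWO over vehicle were -0.558 for Tmprss11d, -0.335 for Tmprss11a, -0.315 for Tmprss11g and -0.256 for Tmprss11bnl, and the adjusted p of all 9 was 1. Tmprss11d, the member with the largest SE here, was lowest in CWO papilloma libraries 2 and 1 and highest in vehicle papilloma library 3. CWO papilloma libraries 1 and 2 were also the lowest of the 6 papillomas in Krt13 and in Sprr3, a cornified envelope precursor of oral epithelium, and the part of this in the Tmprss11 values was not tested. With both left out, which leaves 1 CWO library assumed to vary like the vehicle group, Tmprss11d had 0.11, Tmprss11bnl 0.10 and Tmprss11g -0.05, while Tmprss11a had -0.30. Both libraries were also the lowest of the 6 papillomas in Tmprss11d, Tmprss11bnl and Tmprss11g. Leaving them out therefore had to raise the values of these genes, and nothing is read from the rise.

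In epidermis, 24 h after CWO, 5 of the 9 members could be tested and none of the 5 passed the threshold, where 233 of 12311 genes (1.89%) did and 1795 had an unadjusted p under 0.05. Tmprss11e had the largest value, 0.64 ± 0.14 (SE) on log2(FPKM + 1), and it passed the filter through the 3 CWO libraries and 1 vehicle library. Its mean FPKM was 2.20 times that of vehicle epidermis, and the log2 value was 1.06 with 0.1 added in place of 1. In a fit of all 12 libraries, which share 1 estimate of the spread, Tmprss11e was past the threshold, where 637 of 13224 genes passed it. No member passed in any other alternative setting of this comparison. The other tested members had 0.29 ± 0.14 for Tmprss4, 0.14 ± 0.13 for St14, 0.12 ± 0.19 for Tmprss11f and 0.07 ± 0.13 for Prss8. Tmprss11bnl, Tmprss11d, Tmprss11a and Tmprss11g lay below the filter. None of the 9 is among the 176 genes of the authors' deposited table for epidermis, where no adjusted p exceeds 0.00544.

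The difference between the CWO effects, papilloma minus epidermis, left all 9 members short of the threshold, where 95 of 13224 genes (0.718%) passed it and 1307 had an unadjusted p under 0.05. It sets 6 weeks in papillomas against 24 h in epidermis. Tissue, DMBA and TPA exposure, length of treatment and how the tissue was taken therefore cannot be told apart. All 9 values were negative, beside 57.6% of all tested genes, and they share libraries with the comparisons above. Tmprss11bnl, Tmprss11d, Tmprss11a and Tmprss11g entered this fit through papillomas. In epidermis they lay below the filter, with at most 39 fragments in a library, so nothing is read from the count of signs. The 9 values ranged between -0.66 ± 0.26 (SE) for Tmprss11g and -0.12 ± 0.16 for St14. With 0.1 added in place of 1 before the logarithm, Tmprss11g had -1.25, Tmprss11e -0.97, Tmprss11bnl -0.76 and Tmprss11a -0.07. Tmprss11e had -0.55 ± 0.20, with 0.09 in papillomas and 0.64 in epidermis. With CWO papilloma libraries 1 and 2 both left out, the values of Tmprss11d (0.12), St14 (0.06), Prss8 (0.04) and Tmprss11bnl (0.03) were positive. Each of these genes was lower in both of those libraries than in the remaining CWO papilloma library. A rise was therefore fixed in advance, and nothing is read from the change of sign.

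Most other genes of the cluster and its flanks lay below the filter. Of the 12 other genes in the cluster or within 500 kb of its ends, 9 lay below it and 3 could be tested between the vehicle tissues. Of these 3, 2 were higher in papillomas and 1 was not called. Over all genes tested, 31.7% were higher and 38.2% lower, and nothing is read from so few genes. Uba6, a ubiquitin-activating enzyme gene, was higher in papillomas (10.5 ± 0.186 FPKM, against 1.803 ± 0.485 FPKM in epidermis; log2 difference 2.05, SE 0.14, limma adjusted p = 9.12e-06). Cenpc1, a centromere protein gene, was also higher (5.58 ± 0.119 FPKM, against 2.71 ± 0.863 FPKM in epidermis; log2 difference 0.85, SE 0.17, adjusted p = 0.00247). Ythdc1, an RNA-binding protein gene next to Tmprss11e, had 25.1 FPKM in papillomas and 23.3 FPKM in epidermis and did not pass (0.12, SE 0.14, adjusted p = 0.474). Tmprss11c had at most 0.0463 FPKM in any papilloma library, 1 fragment, and 0 in all 6 epidermis libraries. The 6 Ugt2b genes beyond Ythdc1, which encode glucuronosyltransferases, had at most 0.0247 FPKM in any library. None of the 4 flanking genes tested with CWO in epidermis and none of the 3 tested in papillomas passed the threshold.

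**Figure D4:**
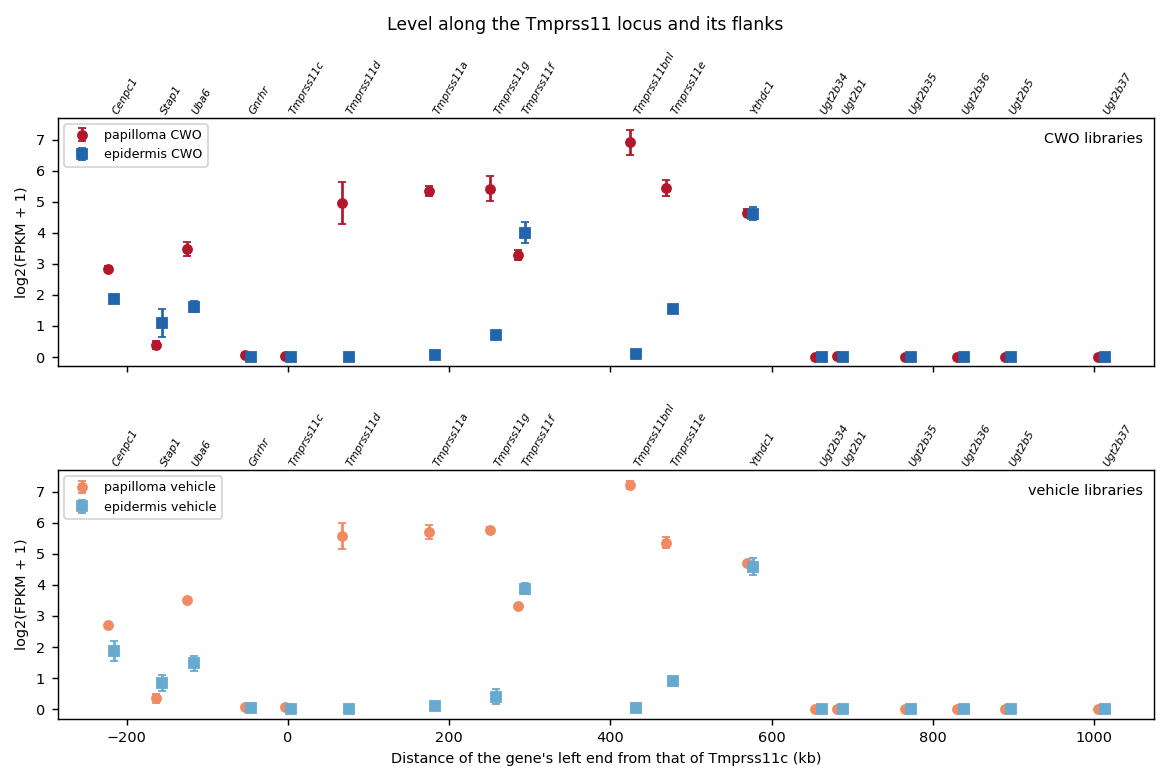
Mean log2(FPKM + 1) ± SD (vertical axes, n = 3) of the 7 Tmprss11 genes and their neighbours against the distance of each gene's left end from that of Tmprss11c (horizontal axis, kb), CWO libraries above and vehicle libraries below. Papilloma and epidermis points lie far apart for Tmprss11d, Tmprss11a, Tmprss11g, Tmprss11bnl and Tmprss11e, close together for Ythdc1, and near 0 for Tmprss11c and the Ugt2b genes.

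Genes whose profiles over the 12 libraries were most like those of the 3 members with the widest span were picked from 12066 genes by the smallest root mean square difference of centred log2(FPKM + 1). For Tmprss11bnl these were Klk12 (0.18), Klk10 (0.268), Pitx1 (0.377), Wfdc12 (0.38) and Serpinb3a (0.412). Klk12, a kallikrein-related secreted serine protease, had 144 ± 34.2 FPKM in CWO papillomas and 172 ± 22.7 FPKM in vehicle papillomas, against 0.467 ± 0.273 FPKM in CWO epidermis and 0.128 ± 0.0721 FPKM in vehicle epidermis. For Tmprss11a they were Pla2g4d (0.088), Gsto1 (0.229), Tubb3 (0.299), Cldn17 (0.306) and Gsta4 (0.32). For Tmprss11d they were Cldn17 (0.182), Mal (0.242), Pla2g4d (0.261), Dsc2 (0.305) and Gsto1 (0.382). Cldn17, a claudin of tight junctions, had 42.4 ± 24.3 FPKM in CWO papillomas and 52.3 ± 11.9 FPKM in vehicle papillomas, against 0.0191 ± 0.0330 FPKM in CWO epidermis and 0 in vehicle epidermis. The 1 added before the logarithm flattens values near 0, so a like profile does not mean a like fold change. In vehicle epidermis Klk10 had 11.5 FPKM, against 0.0256 FPKM for Tmprss11bnl. Gsto1 had 29.6 FPKM there, against 0.0826 FPKM for Tmprss11a. Among the members themselves, Tmprss11a and Tmprss11g differed by 0.288, Tmprss11d and Tmprss11g by 0.301, and Tmprss11a and Tmprss11d by 0.305. St14 and Tmprss4, the closest pair of the 9, differed by 0.152. Apart from that pair, these likenesses are dominated by the contrast of papilloma with epidermis. St14 and Tmprss4 differed little between the vehicle tissues (log2 differences -0.46 and -0.36), and small differences alone make this measure small. All of these likenesses are a description.

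The Kunitz inhibitors of matriptase and prostasin went in opposite directions between the tissues. Spint2, the gene of HAI-2, was lower in vehicle papillomas, at 216, 220 and 184 FPKM, against 437, 477 and 505 FPKM in vehicle epidermis (log2 difference -1.20, SE 0.11, limma adjusted p = 3.77e-05). Spint1, the gene of HAI-1, was higher in vehicle papillomas, at 44.7, 52.1 and 57.3 FPKM, against 31.4, 34.1 and 33.7 FPKM in vehicle epidermis (log2 difference 0.61, SE 0.11, adjusted p = 0.00121). Papilloma and epidermis libraries did not overlap for either gene, and both calls held in all 16 alternative settings. The Spint1 to St14 ratio of FPKM was 1.10 ± 0.0631 in CWO papillomas and 1.18 ± 0.121 in vehicle papillomas, against 0.499 ± 0.0295 in CWO epidermis and 0.553 ± 0.0326 in vehicle epidermis (SD, n = 3 each). The Spint2 to Prss8 ratio was 4.15 ± 0.394 in CWO papillomas and 4.00 ± 0.898 in vehicle papillomas, against 9.31 ± 1.37 in CWO epidermis and 9.30 ± 1.06 in vehicle epidermis. The summed FPKM of both inhibitors was 0.495 ± 0.0657 times that of the 9 proteases in vehicle papillomas, against 2.25 ± 0.119 times in vehicle epidermis. The Tmprss11 genes, selected with their levels in view, gave 351 FPKM of the protease sum in vehicle papillomas and 15.2 FPKM in vehicle epidermis. Nothing is read from this last ratio, and inhibition was not measured. CWO did not change Spint1 or Spint2 past the threshold in either tissue: in papillomas Spint1 had -0.08 ± 0.11 (SE) and Spint2 -0.04 ± 0.12 (adjusted p = 0.9999 for both), and in epidermis Spint1 had -0.01 ± 0.14 (adjusted p = 0.993) and Spint2 0.07 ± 0.12 (adjusted p = 0.869).

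**Figure D5:**
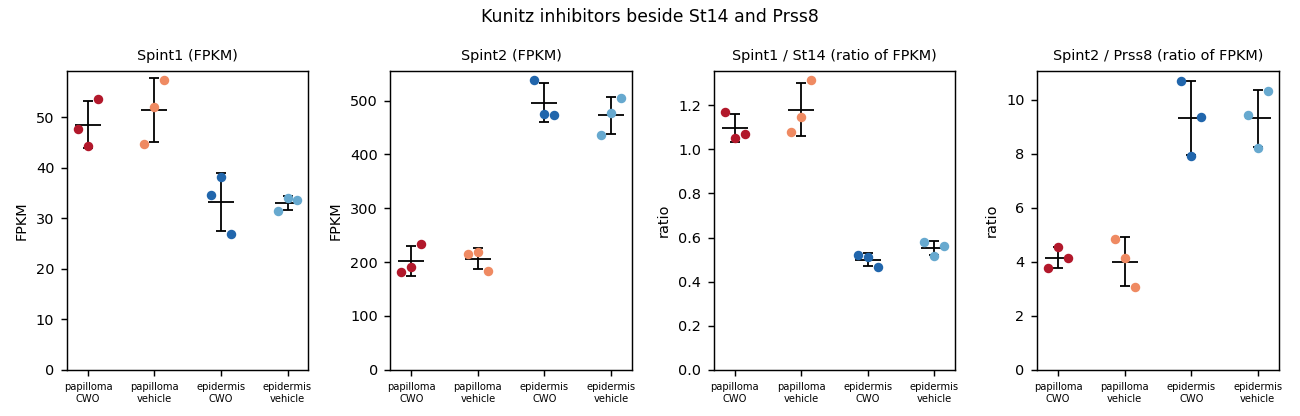
Spint1 and Spint2 in FPKM and their ratios to St14 and Prss8 (vertical axes, each from 0) in the 4 groups, with points for libraries and black bars for the mean ± SD (n = 3). Spint1 and its ratio to St14 are higher in papillomas, and Spint2 and its ratio to Prss8 are higher in epidermis.

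In the wider list of protease inhibitors, 9 of 15 tested genes were higher and 2 lower in vehicle papillomas, with a median log2 difference of 0.79 beside -0.07 over all genes. Of all 12820 genes tested, 31.7% were higher and 38.2% lower, and nothing further is read from this count or those of the next lists. Slpi, a secreted inhibitor of serine proteases, had 3681 ± 422 FPKM in vehicle papillomas and 6.56 ± 2.53 FPKM in vehicle epidermis (log2 difference 8.97, SE 0.22, limma adjusted p = 7.64e-08). Serpinb6c, an intracellular serpin, rose by 4.01 (adjusted p = 9.65e-07), Spink12, a Kazal inhibitor, by 3.04 (adjusted p = 1.98e-06) and Serpine2, protease nexin 1, by 2.63 (adjusted p = 9.03e-06).

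Of 20 tested substrates and targets of these proteases, 8 were higher and 7 lower in vehicle papillomas, with a median of 0.10. The shares over all genes were 31.7% higher and 38.2% lower. Plaur, the urokinase receptor, had 13.6 ± 0.579 FPKM in papillomas and 0.323 ± 0.152 FPKM in epidermis (log2 difference 3.47, SE 0.13, adjusted p = 5.45e-07). F2rl1, which encodes the protease-activated receptor PAR2, was lower in papillomas, at 4.36 ± 0.852 FPKM, against 24.5 ± 3.00 FPKM in epidermis (-2.25, SE 0.15, adjusted p = 6.68e-06). The sodium channel subunits Scnn1b (2.00, adjusted p = 5.11e-06) and Scnn1g (1.495, adjusted p = 3.04e-05) and Cdcp1, a membrane protein cleaved by matriptase (2.03, adjusted p = 3.41e-06), were higher in papillomas. Flg2, a filaggrin family gene of the cornified layer, was lower (-3.55, SE 0.14, adjusted p = 7.37e-07).

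All 15 tested downstream epidermal proteases passed the threshold between the tissues, 14 higher and 1 lower in vehicle papillomas, with a median of 1.06. Over all genes, 31.7% were higher and 38.2% lower. Most of them are kallikrein-related peptidases, secreted serine proteases of the upper epidermis. Klk14 had 732 ± 163 FPKM in papillomas and 0.471 ± 0.270 FPKM in epidermis (8.95, SE 0.20, adjusted p = 4.49e-08). Klk10, Klk13, Klk6 and Klk8 had log2 differences of 7.23, 7.84, 5.34 and 2.51, and Casp14, a caspase of cornification, had 3.32, with adjusted p-values between 1.03e-08 and 4.67e-07. Of 20 other membrane serine proteases in the files, 16 lay below the filter. Prss27 (2.46, adjusted p = 1.49e-05) and Prss22 (1.85, adjusted p = 9.42e-05) were higher and Tmprss7 (-1.23, adjusted p = 4.38e-05) lower in papillomas.

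Of 16 tested transcription factors of squamous epithelium, 10 were higher and 2 lower in vehicle papillomas, with a median of 0.52. Beside them, 31.7% of all genes were higher and 38.2% lower. Pitx1, a homeobox factor, had 98.4 ± 4.38 FPKM in papillomas and 0.280 ± 0.144 FPKM in epidermis (6.28, SE 0.12, adjusted p = 2.32e-08). The epithelial ETS factors Ehf (3.66, adjusted p = 4.81e-07) and Elf3 (2.65, adjusted p = 1.87e-06), the AP-1 subunit Fosl1 (3.75, adjusted p = 3.51e-06), Grhl3 (1.21, adjusted p = 5.72e-05) and Ovol1 (0.90, adjusted p = 6.03e-05) were higher too. All of these list genes kept their tissue call in every alternative setting in which they were tested. Between the tissues, 69.9% of all genes were called. The oral and oesophageal type markers summed to 14070 to 18330 FPKM in vehicle papillomas, 8 of 12 reaching 1 FPKM in every library. In vehicle epidermis they summed to 2730 to 3324 FPKM, where 5 of 12 did and 2 of 12, Sprr3 among them, were at 0 in every library. Sprr1a alone had 7173, 6694 and 7579 FPKM in vehicle papillomas. Of 10 tested markers, 6 were higher, 1 lower and 3 not called. Krt24 was lower in vehicle papillomas, at 0.44, 0.34 and 0.24 FPKM, against 3.72, 3.99 and 3.79 FPKM in vehicle epidermis. Whether cell types shifted, and the part of that in these list counts, was not tested.

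With CWO in epidermis, 7 genes of the lists rose past the threshold and none fell: 2 of 13 tested inhibitors, 3 of 14 downstream proteases and 2 of 15 transcription factors. Of all 12311 genes tested, 1.73% rose and 0.162% fell. The list medians were 0.07, 0.31 and 0.15, beside 0.02 over all genes. Klk6 had 117 ± 30.9 FPKM with CWO and 31.5 ± 3.64 FPKM with vehicle (log2 difference 1.83, SE 0.20, limma adjusted p = 0.00745). Slpi had 26.6 ± 5.26 FPKM with CWO and 6.56 ± 2.53 FPKM with vehicle (1.90, SE 0.24, adjusted p = 0.00986). Ehf rose by 1.22 (adjusted p = 0.00870), Elf3 by 1.43 (adjusted p = 0.0231), Klk13 by 1.26 (adjusted p = 0.0302), Serpinb6c by 1.31 (adjusted p = 0.0428) and Klk10 by 0.71 (adjusted p = 0.0494). In the authors' deposited table for epidermis, Slpi (1.99), Klk6 (1.90), Elf3 (2.04) and Ehf (1.34) are listed with log2 fold changes of CWO over vehicle. Klk13, Serpinb6c and Klk10 are not among its 176 genes. Without CWO epidermis library 1, Slpi, Klk6 and Ehf lost the call (adjusted p = 0.0563, 0.0538 and 0.0563). Elf3, Klk13 and Serpinb6c lost it without any one of CWO libraries 1 and 2 and vehicle libraries 1 and 2, with adjusted p up to 0.136, 0.136 and 0.183, and Klk10 lost it without any one of the 6 libraries (adjusted p = 0.0501 to 0.173). All 7 lost it with the muscle-rich vehicle libraries 1 and 2 both left out, where the spread comes from the CWO libraries alone, with adjusted p between 0.0533 (Slpi) and 0.607 (Klk10). All 7 also lost it with no filter on low values, with adjusted p between 0.0502 (Klk6 and Ehf) and 0.138 (Serpinb6c). With the replicate block Slpi kept the call (adjusted p = 0.0253), and the others lost it, with adjusted p between 0.0586 (Ehf) and 0.134 (Klk10). None of 20 tested substrates (F2rl2 had the smallest p, adjusted p = 0.305) and none of 4 other membrane proteases (Prss22, adjusted p = 0.12) passed. In papillomas none of the tested genes of these 5 lists passed with CWO, and Spink12, Flg2, Klk11, Prss22 and Ovol2, the genes of smallest p in each list, all had an adjusted p of 0.9999.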

How the data were processed

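PolyA RNA of 12 libraries, 3 in each of 4 groups, was sequenced from Illumina TruSeq libraries, per the labels' protocols. The submitters' processing notes name bcl2fastq 1.8.4, TopHat2 2.0.4, Cufflinks 2.0.2, DESeq and the mm9 build. Gene values are FPKM as deposited by the authors, 1 library per table. The authors' deposited comparison tables hold log2 fold changes and p-values of CWO against vehicle, per the file headers. No per-sample column was left unused.

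Values whose Cufflinks status was not OK were treated as missing, and the 248 symbols with more than 1 row were summed. Fragments per gene were estimated from FPKM and the upper Cufflinks bound, taken as 2 SD; 68.0% to 69.2% of values under 500 fragments came out whole within 0.02. Fragment floors and intervals cover counting error only. Differences were fitted on log2(FPKM + 1) with limma 3.58.1 in R 4.3.3 (mean-variance trend, two-sided tests, Benjamini-Hochberg adjusted p under 0.05). Genes needed at least 1 FPKM in 3 fitted libraries and 2 values per group. Each CWO comparison used its own 6 libraries, the difference between the CWO effects all 12, and the tissue comparison the 6 vehicle libraries, which it shares with the CWO comparisons. The script was tested on simulated data. Cufflinks starts count from 0 and are given from 1.

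The members and gene lists were chosen with earlier results of these data known. Named list genes are those past the threshold, at most the 6 of smallest p per list and comparison, or the gene of smallest p where none passed. A list gene that this rule names is not reported here. Alternatives were the added value, the filter, median-ratio scaling, a replicate block, all libraries in one fit, and left-out libraries. Leaving out short non-coding genes, using values of any status and leaving out CWO papilloma libraries 1 and 2 together were chosen after seeing the data. Papilloma libraries come from separate mice; where nothing says the epidermis samples are separate mice, p-values measure the spread between these samples.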

Additional observations from a re-analysis of the deposited data

Results flagged for a closer look

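The response to CWO differed between papillomas at 6 weeks and epidermis at 24 h for 4 genes of the protease lists. The test was the limma test of the difference between the CWO effects (papilloma minus epidermis, log2 scale). Tissue, DMBA and TPA exposure, length of treatment and how the tissue was taken go together and cannot be told apart. Of all 13224 genes tested, 95 (0.718%) passed. In the lists, 1 of 15 inhibitors, 1 of 15 downstream proteases and 2 of 16 transcription factors did. Slpi had a difference of -2.07 (SE 0.32, adjusted p = 0.0141), with 3311 and 3681 FPKM in CWO and vehicle papillomas, and 26.6 and 6.56 FPKM in CWO and vehicle epidermis. Klk6 had -1.68 (SE 0.33, adjusted p = 0.042), with 1507 and 1309 FPKM in CWO and vehicle papillomas, and 117 and 31.5 FPKM in CWO and vehicle epidermis. Elf3 had -1.62 (SE 0.29, adjusted p = 0.0315), with 12.1 and 13.7 FPKM in CWO and vehicle papillomas, and 5.49 and 1.35 FPKM in CWO and vehicle epidermis. Ehf had -1.36 (SE 0.22, adjusted p = 0.0156), with 76.0 and 83.4 FPKM in CWO and vehicle papillomas, and 14.5 and 5.67 FPKM in CWO and vehicle epidermis. Slpi kept its call without any single library. Ehf lost it without CWO epidermis library 1 (adjusted p = 0.0522). Elf3 and Klk6 each lost it in 9 of the 12 fits that left out 1 library, with adjusted p up to 0.101 and 0.129. With CWO papilloma libraries 1 and 2 both left out, all 4 lost it (adjusted p = 0.147 for Slpi, 0.073 for Klk6, 0.323 for Elf3 and 0.0755 for Ehf). With vehicle epidermis libraries 1 and 2 both left out, Klk6 (adjusted p = 0.385), Elf3 (0.244) and Ehf (0.199) lost it, and Slpi had an adjusted p of 0.046. With no filter on low values, Klk6 (0.0894) and Elf3 (0.0654) lost it.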

How the results depend on the processing

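Between the vehicle tissues, genes called numbered 6934 to 10216 over the alternatives, against 8958 as reported, and 7 members were called in each, except 8 with the replicate block and 8 without vehicle papilloma library 2, Tmprss4 being the addition. For CWO in epidermis (233 genes), 33 were called with no filter, 26 with the replicate block, 637 with all 12 libraries in one fit, where 1 member (Tmprss11e) was called, and 11 without vehicle libraries 1 and 2. Leaving out 1 library gave 25 (CWO library 1) to 622 genes (vehicle library 3), with 78 without CWO library 2, 77 without vehicle library 1 and 89 without vehicle library 2. For CWO in papillomas (1 gene), 0 were called with 3 added before the logarithm, with no filter, with median-ratio scaling, without short non-coding genes and without CWO libraries 1 and 2, 5 with the replicate block, and 2 with all 12 libraries in one fit. Leaving out 1 library gave 0 to 2. For the difference between the CWO effects (95 genes), 63 were called with no filter, 58 with the replicate block, 17 without vehicle epidermis libraries 1 and 2, and 12 without CWO papilloma libraries 1 and 2. Leaving out 1 library gave 32 (CWO epidermis library 1) to 334 genes (vehicle epidermis library 3). No member was called in the papilloma comparison or the difference under any alternative, and the causes of these shifts in count were not tested. Same-numbered libraries correlated between -0.411 and 0.222 in their deviations from the group means, so the numbers were not taken as pairs; with the block, 8496 genes were called between the tissues.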
